A study of Mus musculus with 17 samples.

Results

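The extracellular matrix genes of mouse sympathetic ganglia were taken as a group: every probe set of the array whose platform symbol names a collagen chain or a laminin alpha, beta or gamma chain, together with Lox, Loxl1, Loxl2, Eln, Fn1, Tnc, Tnxb, Postn, Fbn2, Sparc, Dcn and Lum. This rule uses names and no measured value. It gave 64 genes of 17306 probe sets, namely 42 collagen chains, 10 laminin chains and 12 other matrix genes, each with 1 probe set. Of the 64 genes, 39 exceeded a log2 value of 4 in at least 2 of the 17 arrays and were tested. The other 25 lay near background, and 18 of those exceeded 4 in no array.

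Expression was measured in pooled superior cervical and stellate ganglia of mice labelled C57BL/6. Wild-type (Wt) mice carry no altered Alk allele, while heterozygous (Het) and homozygous (Hom) mice carry the knock-in point mutation F1178L on 1 or on both alleles of Alk, which encodes a receptor tyrosine kinase known from sympathetic neuroblasts. The knock-in is in the germline, so every cell type of the ganglion carries it. Each genotype had 4 arrays at birth (P0), while on postnatal day 18 (P18) Wt had 3 and Het 2. Hom ganglia of that age were not analysed here. The labels do not say whether animals differed between arrays, and the p-values therefore reflect only the spread between these samples. No batch is labelled, so a batch and the age of the animals cannot be told apart. A point mutation need not alter the transcript level of Alk, so that level does not check the genotype labels.

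Collagens are triple helices of 3 chains. The fibrillar chains build the tensile fibres of connective tissue, type IV chains and laminins build the sheet-like basement membrane around Schwann cells, satellite glia and vessels, and type VI chains form beaded filaments between both. Lysyl oxidases crosslink collagen and elastin, and glycoproteins such as fibronectin, tenascin-C and periostin link cells to the fibres. In a ganglion these genes are known mainly from fibroblasts, glia and vessel cells rather than from the neurons. The arrays measured RNA of the whole ganglion, where fewer cells of a type and less RNA per cell cannot be told apart.

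Array medians ran from 4.41 to 4.68 on the log2 scale. All 14 measured markers of sympathetic neurons, such as the noradrenaline synthesis genes Th and Dbh, exceeded 4 in every array, and their mean log2 level lay between 11.20 and 11.76. Arrays of P0 Wt and P0 Hom spread widely over these genes. P0 Wt replicate 3 was the highest of its group for 32 of the 39 tested genes, with a median deviation of 0.45 from the group mean. P0 Hom replicate 12 was the lowest of its group for 29 of 39, with a median deviation of -0.41. At the other extreme, P0 Wt replicate 2 was the lowest of its group for 26 of 39 (median deviation -0.33) and P0 Hom replicate 9 the highest for 27 of 39 (0.30). Over all tested probe sets P0 Wt replicate 3 and P0 Hom replicate 12 correlated least with their own groups, with a mean r of 0.958 and 0.951, where the other arrays of these groups had 0.956 to 0.972. P0 Wt replicate 3 also had the highest mean level of all 17 arrays for the markers of glia (7.57), fibroblasts (5.01) and mural cells (6.42), and the part of these cells in its matrix values was not tested. Genotype results at P0 are given below with all arrays first, and then without either pair and without all 4.

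The change with age was compared first, between P0 and P18 within each genotype. Matrix genes were mostly lower at P18. In Wt ganglia 30 of the 39 tested genes fell and 3 rose, where 27.0% and 27.9% of all 9973 tested probe sets did so. In Het ganglia 23 fell and 7 rose, against 25.5% and 22.3% of all tested. The median log2 difference of the 39 genes was -1.88 in Wt and -1.38 in Het ganglia, beside 0.01 and -0.04 for all tested probe sets. In Wt ganglia all 33 calls had P0 and P18 arrays that did not overlap, as had 92.0% of all called probe sets and 57.7% of all tested ones.

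**Figure D1:**
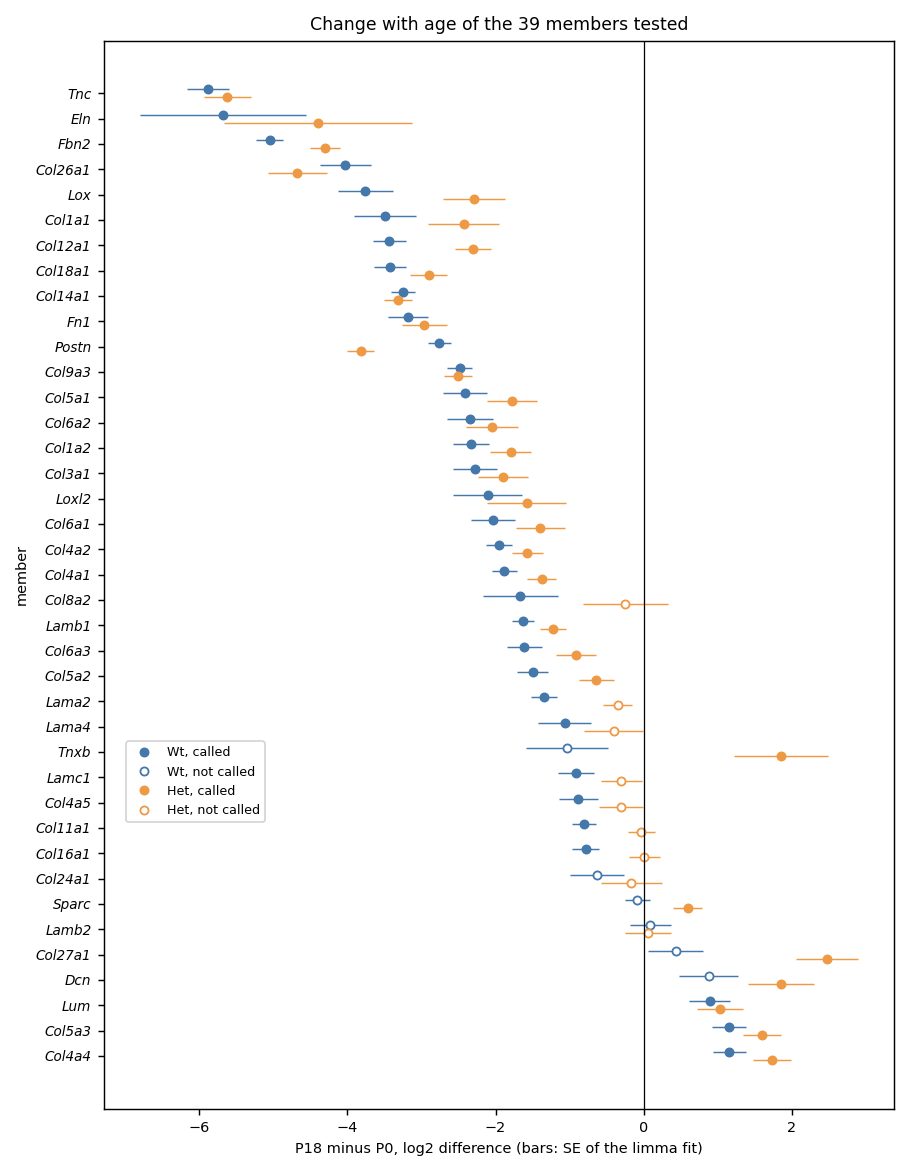
Log2 difference of P18 minus P0 for each of the 39 tested genes (horizontal axis) in Wt (blue, 4 and 3 arrays) and Het ganglia (orange, 4 and 2 arrays), ordered by the Wt value, with bars for the SE of the fit. Filled points passed an adjusted p of 0.05. Most points lie left of 0, from -5.89 for Tnc in Wt, and Col4a4 and Col5a3 lie farthest right in Wt at 1.15 each.

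In Wt ganglia the largest measured falls were those of tenascin-C and the elastic fibre genes Eln and Fbn2. Tnc, which encodes tenascin-C, a glycoprotein of growing and remodelling tissue, stood at log2 10.61, 11.09, 10.98 and 10.32 in the P0 Wt arrays and at 4.85, 5.36 and 4.38 in the P18 Wt arrays. All P0 arrays lay far above all P18 arrays, whatever the genotype. Tnc fell by 5.89 ± 0.28 (SE, 59.2-fold, adjusted p = 2.6e-10) in Wt and fell by 5.62 ± 0.32 (49.2-fold, adjusted p = 2.0e-09) in Het ganglia. Eln, the elastin gene, stood at 6.95, 7.92, 8.78 and 7.96 in P0 Wt, and at 2.21 to 2.23 in all 5 P18 arrays, a level near background. Its fall of 5.68 ± 1.12 in Wt ganglia (adjusted p = 0.00058) is therefore inexact in size. In P0 Het ganglia Eln stood at 7.30, 8.40 and 8.08 in 3 arrays and at 2.69 in replicate 6. With that array its fall in Het ganglia was 4.40 ± 1.27 (adjusted p = 0.010). This call was lost when P18 Het replicate 4 (-4.41, adjusted p = 0.061) or replicate 5 (-4.39, adjusted p = 0.062) was left out. Fbn2, which encodes fibrillin-2, the microfibril protein of developing elastic fibres, fell by 5.05 ± 0.18 (adjusted p = 1.4e-11) in Wt and by 4.31 ± 0.20 (adjusted p = 2.9e-10) in Het ganglia. The 4 P0 Wt arrays read 9.57, 9.36, 9.74 and 9.29 for Fbn2 and the 3 P18 Wt arrays 4.49, 4.84 and 3.98, with no overlap.

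The lysyl oxidases fell beside their substrates. Lox, the main enzyme that crosslinks collagen and elastin, read 6.17, 6.50, 6.65 and 6.91 in P0 Wt and 2.77 to 2.83 in all P18 arrays, so it was near background at P18 in both genotypes. It fell by 3.76 ± 0.37 (adjusted p = 5.2e-07) in Wt and by 2.30 ± 0.42 (adjusted p = 0.00030) in Het ganglia. Loxl2, a related oxidase that acts on collagen IV, fell by 2.11 ± 0.47 (adjusted p = 0.0013) in Wt and by 1.58 ± 0.53 (adjusted p = 0.022) in Het. The Het call of Loxl2 was lost without P0 Het replicate 6 (-1.45), P18 Het replicate 4 (-1.79) or P18 Het replicate 5 (-1.37). Loxl1, which crosslinks elastin, was not tested and exceeded 4 in P0 Wt replicate 3 alone (4.87).

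Of the 11 fibrillar chains 9 were tested, and 6 fell and 1 rose with age in Wt ganglia, against 5 and 2 in Het. Col1a1 and Col1a2 together form collagen I, the main collagen of tendon, skin and nerve sheath. Col1a1 read 8.13, 7.39, 8.94 and 7.36 in P0 Wt arrays and 4.87, 4.92 and 3.59 in P18 Wt arrays. Col1a2 read 12.99, 12.64, 13.64 and 12.72 at P0 and 10.76, 10.81 and 10.42 at P18. For both chains every P0 array lay above every P18 array. Col1a1 fell by 3.49 ± 0.42 in Wt (adjusted p = 4.8e-06), and in Het ganglia it fell by 2.43 ± 0.48 (adjusted p = 0.00059). Col3a1, the chain of collagen III, which is made together with collagen I in soft tissue, fell by 2.28 ± 0.30 (adjusted p = 9.9e-06) in Wt, and in Het it fell by 1.90 ± 0.34 (adjusted p = 0.00023). Its P0 Wt values were 12.59, 12.41, 13.36 and 12.45 and its P18 Wt values 10.54, 10.47 and 10.26. The collagen V chains, which start and limit collagen fibrils, moved in both directions. Col5a1 fell by 2.41 in Wt and by 1.77 in Het, Col5a2 fell by 1.497 in Wt and fell by 0.638 in Het, while Col5a3 rose by 1.15 ± 0.23 (adjusted p = 0.00049) and 1.60 ± 0.26 (adjusted p = 9.6e-05). Col5a3 read 7.66, 7.73, 8.29 and 7.62 in P0 Wt and 9.32, 9.30 and 8.30 in P18 Wt arrays, where the lowest P18 value lay just above the highest P0 value. The Het call of Col5a2 was lost without P0 Het replicate 7 (-0.64), P0 Het replicate 8 (-0.57), P18 Het replicate 4 (-0.72) or P18 Het replicate 5 (-0.55). Col11a1, a minor chain of thin fibrils, fell by 0.81 in Wt (adjusted p = 0.00057), and its difference was -0.03 in Het (adjusted p = 0.91). Col27a1, a fibrillar chain described in cartilage, rose by 2.48 ± 0.42 in Het (adjusted p = 0.00015), and its difference in Wt was 0.43 ± 0.37 (adjusted p = 0.34).

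The 250 bases before the most upstream start in the promoter table used are shown for 4 of these genes, because Tnc, Col3a1 and Col1a2 fell and Col5a3 rose in both genotypes. They are RefSeq sequences of build GRCm38.p6 and read 5′ to 3′ on the strand of the gene. Tnc lies at chr4:64047016-64047265 on the minus strand, Col3a1 at chr1:45311288-45311537 on the plus strand, Col1a2 at chr6:4505368-4505617 on the plus strand and Col5a3 at chr9:20815068-20815317 on the minus strand. The last 50 bases of the Col5a3 window lie within the gene as RefSeq annotates its full extent, and 1 of its marked GC boxes is among them, while the other 3 windows end where the gene begins. Capitals mark matches to 3 motifs searched on both strands, namely the TATA box, searched as the letters TATAAA, the CCAAT box, searched by those letters in its name, and the GC box, searched as GGGCGG. In these windows no match overlapped another.
Tnc: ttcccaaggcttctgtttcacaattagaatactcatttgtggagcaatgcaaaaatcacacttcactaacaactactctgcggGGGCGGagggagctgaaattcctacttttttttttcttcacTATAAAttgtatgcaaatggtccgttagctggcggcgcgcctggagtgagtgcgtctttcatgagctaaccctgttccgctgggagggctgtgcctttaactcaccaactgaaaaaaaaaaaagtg
Col3a1: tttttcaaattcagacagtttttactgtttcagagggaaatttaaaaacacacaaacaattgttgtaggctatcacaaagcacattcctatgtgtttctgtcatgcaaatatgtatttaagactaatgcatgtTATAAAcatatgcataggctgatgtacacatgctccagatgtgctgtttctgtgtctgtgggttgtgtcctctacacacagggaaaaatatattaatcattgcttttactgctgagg
Col1a2: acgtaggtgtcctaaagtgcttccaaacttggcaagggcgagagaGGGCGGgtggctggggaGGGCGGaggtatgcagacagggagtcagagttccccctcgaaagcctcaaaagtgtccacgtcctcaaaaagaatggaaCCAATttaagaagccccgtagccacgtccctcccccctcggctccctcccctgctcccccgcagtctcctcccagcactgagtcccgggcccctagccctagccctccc
Col5a3: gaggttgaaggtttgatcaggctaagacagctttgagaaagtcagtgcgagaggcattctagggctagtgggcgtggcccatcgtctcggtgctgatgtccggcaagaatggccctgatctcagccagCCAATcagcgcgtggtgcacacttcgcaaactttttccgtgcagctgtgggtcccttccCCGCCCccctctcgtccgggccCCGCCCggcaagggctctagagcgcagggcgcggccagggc
The windows of Tnc and Col3a1 each hold a TATAAA and those of Col1a2 and Col5a3 each hold a CCAAT. Tnc, Col1a2 and Col5a3 hold GGGCGG on one strand or the other, and Col3a1 holds none. A window was given for 42 of the 64 genes. TATAAA was found in 6 of these 42 windows (14.3%) and in 13.0% of the windows of all 27025 annotated genes. CCAAT was found in 13 (31.0%) against 34.5%, and GGGCGG in 23 (54.8%) against 33.0%. Among the 17 windows of genes that fell with age in Wt ganglia, 11 (64.7%) held GGGCGG, 8 (47.1%) held CCAAT and 2 (11.8%) held TATAAA. The shares among other genes that fell are not given, so a link of these motifs with the fall was not tested. A match is a run of letters and not a measured binding site.

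Basement membrane collagens fell as a rule, with 1 exception. Col4a1 and Col4a2 are neighbouring genes, transcribed away from each other, whose chains form the common collagen IV. Col4a1 read 11.44, 11.19, 11.88 and 11.31 in P0 Wt and 9.80, 9.59 and 9.33 in P18 Wt arrays. Col4a2 read 10.27, 9.92, 10.70 and 10.09 at P0 and 8.58, 8.30 and 7.99 at P18. The falls were close in size, 1.88 ± 0.17 and 1.95 ± 0.18 in Wt (adjusted p = 2.5e-07 for each) and 1.38 ± 0.20 and 1.57 ± 0.20 in Het ganglia (adjusted p = 2.9e-05 and 1.2e-05). Col18a1, the source of endostatin and a proteoglycan of vessel basement membranes, fell by 3.42 ± 0.22 in Wt (adjusted p = 4.7e-09) and by 2.90 ± 0.25 in Het (adjusted p = 1.4e-07), and all 5 P18 arrays lay under 4. Col4a5, a chain of specialised basement membranes such as that of the kidney filter, fell by 0.88 ± 0.26 in Wt (adjusted p = 0.0099), and its difference in Het was -0.31 ± 0.30 (adjusted p = 0.43). Col4a4, a partner chain of Col4a5 in those membranes, moved the other way. It read 2.79 to 3.26 in all P0 Wt and Het arrays, 4.09, 3.79 and 4.55 in P18 Wt and 5.13 and 4.13 in P18 Het arrays. This is a rise from background of 1.15 ± 0.22 in Wt (adjusted p = 0.00044) and 1.73 ± 0.25 in Het (adjusted p = 4.0e-05), while Col4a3, the third chain of that trimer, read 2.08 to 2.14 in all 17 arrays.

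The type VI chains of beaded filaments fell together, as did most of the chains that decorate fibrils. Col6a1, Col6a2 and Col6a3, which assemble into 1 molecule, fell by 2.03, by 2.34 and by 1.61 in Wt and by 1.39, by 2.05 and by 0.92 in Het ganglia. Col6a3 read 10.05, 9.36, 10.63 and 9.60 in P0 Wt and 8.49, 8.32 and 8.08 in P18 Wt arrays, with no overlap. Its Het call was lost without P18 Het replicate 4 or replicate 5 (-0.92 in each case). Col12a1 and Col14a1, fibril-associated chains of dense connective tissue, fell by 3.43 ± 0.22 (adjusted p = 4.4e-09) and by 3.25 ± 0.16 (adjusted p = 4.2e-10) in Wt and by 2.31 and by 3.32 in Het ganglia. Col9a3, a fibril-associated chain known from cartilage, fell by 2.49 and by 2.51, to between 2.81 and 3.29 in all P18 arrays. Col16a1 fell by 0.78 in Wt (adjusted p = 0.0018), and its Het difference was 0.01 (adjusted p = 0.98). Col26a1, a secreted chain with an EMI domain, fell by 4.03 ± 0.35 (adjusted p = 1.2e-07) in Wt and by 4.68 ± 0.39 (adjusted p = 1.3e-07) in Het, where only the fall of Tnc was larger among the 39 genes. Col8a2, of the short-chain networks, fell by 1.67 in Wt (adjusted p = 0.011), and its Het difference was -0.25 (adjusted p = 0.76).

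**Figure D2:**
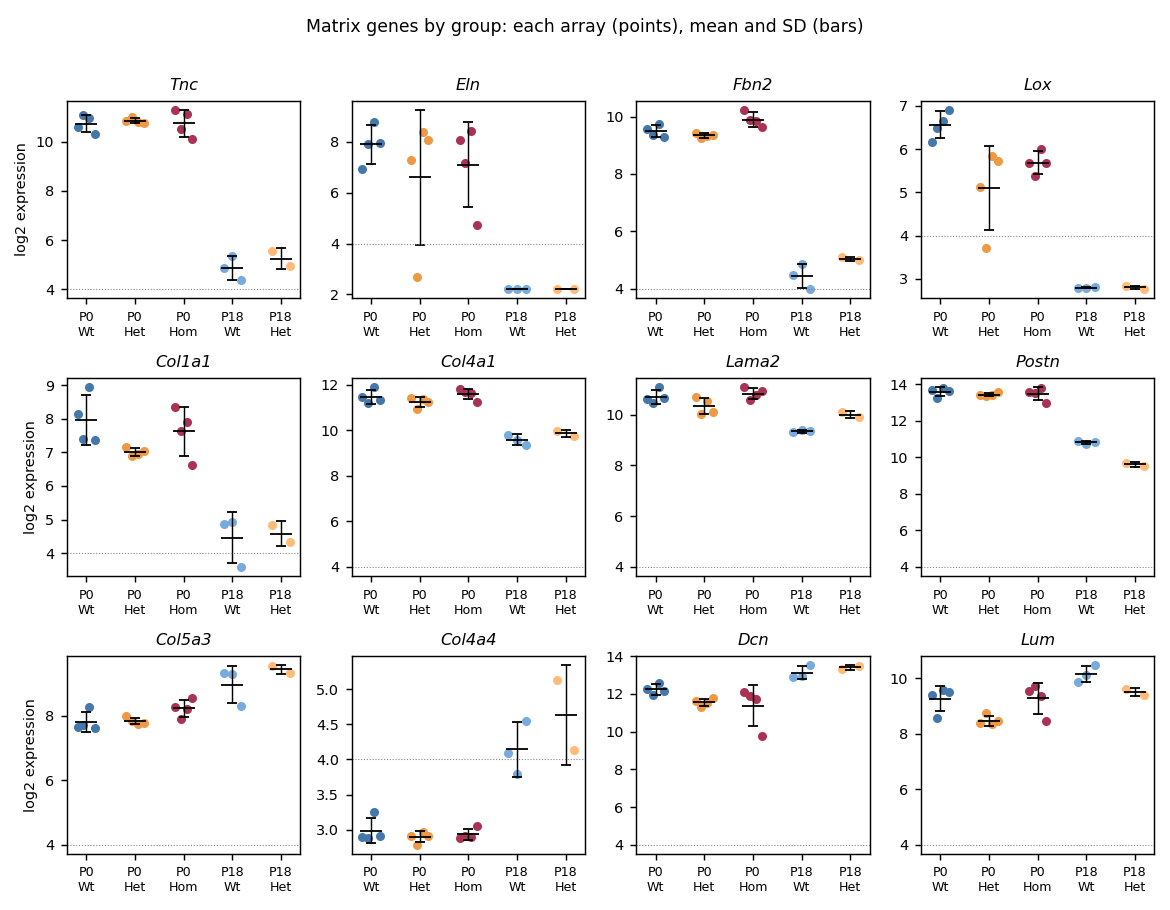
Log2 expression (vertical axis, its own range in each panel) of 12 matrix genes in the 5 groups. Points are arrays, black bars the mean and SD, and the dotted line marks log2 4. Eln and Lox sit at 2.21 to 2.23 and 2.77 to 2.83 in all P18 arrays, and Col4a4, Col5a3, Dcn and Lum are higher at P18 than at P0 within each genotype.

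Laminins are trimers of an alpha, a beta and a gamma chain, and the chains measured above background were those of the laminins of Schwann cells, muscle and vessels. Lama2, the alpha chain of the main Schwann cell laminin, read 10.60, 10.45, 11.08 and 10.64 in P0 Wt and 9.30, 9.40 and 9.34 in P18 Wt arrays. It fell by 1.35 ± 0.17 in Wt (adjusted p = 7.7e-06), and its difference in Het was -0.35 ± 0.19 (adjusted p = 0.15). In P18 Het arrays Lama2 stood at 10.09 and 9.89, within the range of the P0 Het arrays from 10.03 to 10.70 for one of them and below it for the other. Lama4, the alpha chain of vessel laminin, fell by 1.07 ± 0.35 in Wt (adjusted p = 0.018), a call lost without P18 Wt replicate 3 (-0.92, adjusted p = 0.079). Lamb1 fell by 1.64 ± 0.15 in Wt (adjusted p = 2.5e-07) and by 1.23 ± 0.17 in Het (adjusted p = 2.4e-05), whereas Lamb2, the beta chain of synaptic and mature vessel basement membranes, differed by 0.09 ± 0.28 (adjusted p = 0.81) and 0.06 ± 0.31 (adjusted p = 0.91). Lamc1, the gamma chain of most laminins, fell by 0.91 ± 0.24 in Wt (adjusted p = 0.0048), and its Het difference was -0.30 (adjusted p = 0.40). Lama1, Lama3, Lama5, Lamb3 and Lamc3 were not tested, and of these only Lama3 exceeded 4, in 1 array.

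Among the glycoproteins, fibronectin and periostin fell in both genotypes. Fn1, the fibronectin gene, read 10.35, 10.09, 11.27 and 10.11 in P0 Wt and 7.61, 7.08 and 7.13 in P18 Wt arrays. It fell by 3.18 ± 0.27 (adjusted p = 9.7e-08) and by 2.96 ± 0.30 (adjusted p = 1.0e-06) in Het. Postn, the gene of periostin, a glycoprotein that binds collagen and tenascin-C, read 13.66, 13.23, 13.81 and 13.64 in P0 Wt and 10.90, 10.72 and 10.85 in P18 Wt arrays. Its fall was 2.76 ± 0.16 in Wt (adjusted p = 1.7e-09) and 3.82 ± 0.18 in Het (adjusted p = 2.9e-10). Sparc, the collagen-binding protein osteonectin, had a difference of -0.09 ± 0.17 in Wt (adjusted p = 0.68) and rose by 0.59 ± 0.19 in Het (adjusted p = 0.019). That Het call was lost without P18 Het replicate 4 (0.54) or replicate 5 (0.65). Tnxb, the gene of tenascin-X, which tethers collagen fibrils, rose by 1.86 ± 0.63 in Het (adjusted p = 0.024), and its difference in Wt was -1.04 ± 0.56 (adjusted p = 0.13). The Het call of Tnxb was lost without P0 Het replicate 7 (1.65), P18 Het replicate 4 (1.75) or P18 Het replicate 5 (1.96).

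Dcn and Lum encode small leucine-rich proteoglycans, which bind collagen fibrils and set their width, and their measured differences with age were positive in both genotypes. Dcn, the decorin gene, read 12.28, 11.92, 12.61 and 12.16 in P0 Wt arrays and 12.90, 12.94 and 13.52 in P18 Wt arrays. In Het it read 11.64, 11.32, 11.50 and 11.76 at P0 and 13.33 and 13.50 at P18. No P0 array of either genotype reached the P18 arrays. Dcn rose by 1.86 ± 0.45 in Het (adjusted p = 0.0030), and its Wt difference of 0.88 ± 0.40 was not called (adjusted p = 0.072). Lum, the lumican gene and the neighbour of Dcn, rose by 0.89 ± 0.27 in Wt (adjusted p = 0.012) and by 1.03 ± 0.31 in Het (adjusted p = 0.011). The Wt call was lost without P18 Wt replicate 3 (0.73, adjusted p = 0.065) and the Het call without P18 Het replicate 4 (0.93, adjusted p = 0.095).

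The calls of both genotypes were set side by side. These comparisons share no array, but both take the spread of each gene from the same fit of all arrays. The calls are therefore not fully independent of each other. The overlap of calls among all tested probe sets is not given, so that of the matrix genes cannot be set against it. All 23 genes that fell in Het also fell in Wt, which is 76.7% of the 30 in Wt, and the 3 that rose in Wt (Col4a4, Col5a3 and Lum) are 42.9% of the 7 that rose in Het. Genes called lower in Wt alone were Col11a1, Col16a1, Col4a5, Col8a2, Lama2, Lama4 and Lamc1, and those called higher in Het alone were Col27a1, Dcn, Sparc and Tnxb. Several of these assignments changed in alternative runs. Dcn was also called higher in Wt when only the compared arrays were fitted and with the methods' t-test, and Col27a1 without P0 Wt replicate 3. Lama4 was also called lower in Het in the former 2 runs, and Lama2 and Lamc1 with array weights (described below). Whether the change with age itself differed between genotypes was tested by subtracting the P0 difference of Het and Wt from the P18 difference. None of the 39 genes was called there in limma, with 11 (28.2%) at an unadjusted p under 0.05 beside 9.92% of all tested probe sets, and 0.0802% and 0.0602% of all tested probe sets were called higher and lower. Examples are differences of 2.89 ± 0.84 for Tnxb (adjusted p = 0.22), 2.05 ± 0.56 for Col27a1 (adjusted p = 0.18) and -1.06 ± 0.24 for Postn (adjusted p = 0.097). In 34 of 39 genes (87.2%) the change was less negative or more positive in Het, beside 42.6% of all tested probe sets. Every one of these differences draws on the same arrays, P0 Wt replicate 3 included, so the genes are not independent of each other. With array weights, which let poorly fitting arrays count less, 6 genes were called, and 3 (Col27a1, Col5a2 and Postn) without the 4 outermost P0 arrays. Those 4 arrays were picked with their matrix values known. The share of all tested probe sets called is not given for either fit, so these counts cannot be set against it.

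Markers of other cells moved with age too. Of 11 tested fibroblast markers 8 fell and 1 rose in Wt and 4 fell and 2 rose in Het, with the mean log2 level of all 17 measured markers at 4.28 to 5.01 in P0 Wt and 3.68 to 3.90 in P18 Wt arrays, and at 4.07 to 4.30 and 3.82 to 3.97 in Het. Of the transcription factors of mesenchyme on that list, Twist1, Twist2, Tcf21 and Meox1 lay under 4 in every array. Prrx1 ranged from 2.68 to 4.00, Osr1 from 2.15 to 4.72 and Foxc2 from 2.82 to 5.25, and the receptor gene Pdgfra from 3.57 to 5.22. Meox2 (6.71 to 9.11) and Foxd1 (4.90 to 7.51) exceeded 4 in every array, as did the surface marker Cd34 (6.46 to 8.83) and Gas1 (5.91 to 8.86). Per array only 5 to 9 of the 17 markers exceeded 4, so the list mean holds many values near background. Endothelial markers fell in 9 of 10 cases in Wt (4.73 to 5.14 at P0, 3.35 to 3.71 at P18) and in 7 of 10 in Het (4.29 to 4.87, then 3.57 to 3.67), and mural cell markers in 7 of 9 (5.27 to 6.42, then 4.33 to 4.38) and 4 of 9 (4.55 to 5.55, then 4.10 to 4.28). Of 14 skeletal muscle markers 6 fell in Wt and 1 in Het, with means from 2.90 to 8.96 over P0 Wt and 2.72 to 4.86 over P18 Wt arrays. Of 11 glial markers 2 fell and 1 rose in Wt and 2 fell and 6 rose in Het. Of 14 sympathetic neuron markers 6 rose and 5 fell in Wt and 4 rose and 6 fell in Het. Each list has its own genes, so these levels cannot be ranked against each other, and their part in the matrix result was not tested.

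**Figure D3:**
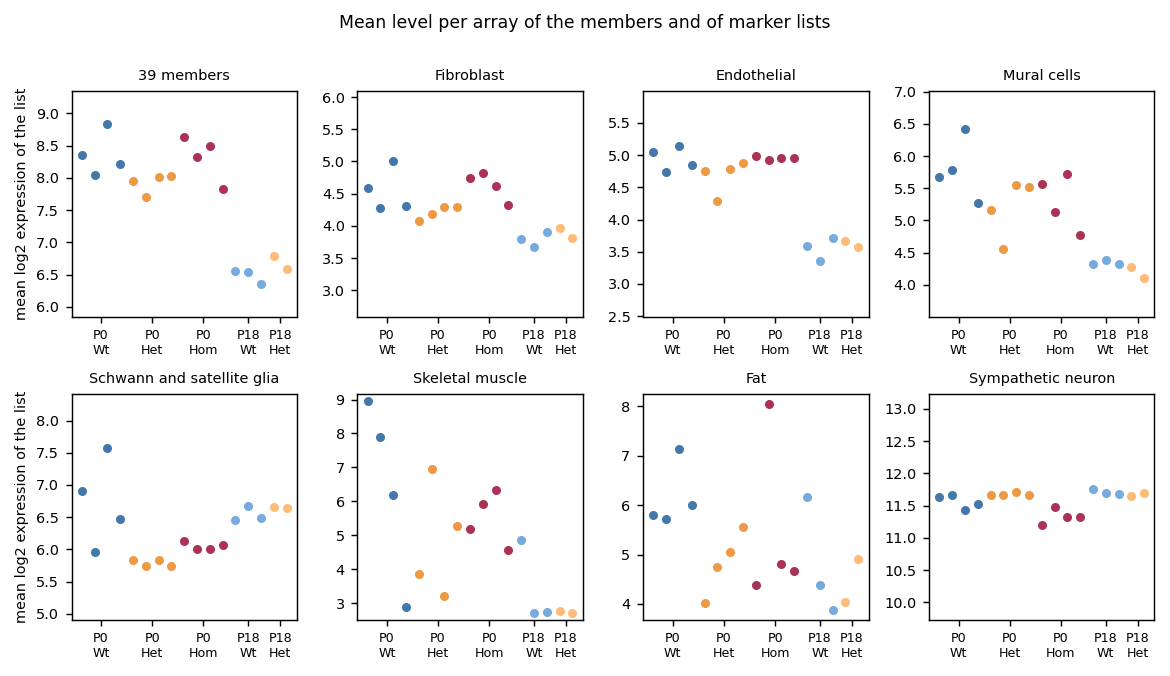
Mean log2 expression per array (points, coloured by group) of the 39 tested matrix genes and of 7 marker lists, each panel with its own range of log2 values. The matrix mean lies at 7.71 to 8.84 in P0 and at 6.36 to 6.79 in P18 arrays, and the fibroblast, endothelial and mural means are also lower at P18, while the sympathetic neuron mean stays between 11.20 and 11.76.

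Other genes of the matrix were counted from lists. Of 21 tested genes of the collagen synthesis list, 11 fell and none rose with age in Wt (median -0.64) and 8 fell in Het. Its largest fall in Wt was that of Itm2a, by 2.02 ± 0.18 (adjusted p = 1.4e-07). Itm2a is a membrane protein gene whose part in collagen synthesis was not tested. Next came P3h3, of the collagen prolyl hydroxylase family, by 1.06, and Serpinh1, the collagen chaperone of the endoplasmic reticulum, by 0.90. In Het Itm2a fell by 1.37 and P3h3 by 1.56. Of 11 basement membrane partners 7 fell and 1 rose in Wt, and 4 fell and 1 rose in Het. Frem2, a gene of basement membrane adhesion, fell by 1.87 in Wt and by 2.79 in Het, to means of 2.68 and 2.24, near background. Agrn, the agrin gene, fell by 1.79 and by 1.84, and Smoc2, a SPARC-related calcium-binding protein, rose by 1.89 ± 0.24 (adjusted p = 7.6e-06) and 1.95 ± 0.27 (adjusted p = 2.5e-05). Of 11 elastic fibre and microfibril genes 7 fell and 1 rose in Wt, and 3 fell and 2 rose in Het. Mfap2, a microfibril protein, fell by 4.95 ± 0.19 (adjusted p = 2.6e-11) and by 5.06 ± 0.22 (adjusted p = 1.2e-10), beside Fbn2 and Eln above, whereas Efemp1, the fibulin-3 gene, rose by 3.22 and 5.25.

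Proteoglycans and matricellular genes moved in both directions with age. Of 9 tested proteoglycan and link protein genes 6 fell and 2 rose in Wt, and 4 fell and 2 rose in Het. Aspn, the asporin gene of the decorin family, fell by 4.25 and by 4.31 and Vcan, the versican gene, by 3.49 and by 3.44, while Omd, the osteomodulin gene of the same family as Lum, rose by 1.76 and 2.44. Of 13 matricellular genes 5 fell and 3 rose in Wt, and 4 fell and 3 rose in Het, with Thbs2, the thrombospondin-2 gene, falling by 3.39 and by 2.77. Of 17 matrix proteases and inhibitors 9 fell and 3 rose in Wt, and 6 fell and 5 rose in Het. Mmp14, a collagenase of the cell membrane, fell by 1.75 and by 1.29, and the inhibitor genes Timp2 and Timp3 rose by 0.83 and 0.70 in Wt and by 1.31 and 1.18 in Het. Of 11 matrix receptors 2 fell and 3 rose in Wt, and 1 fell and 4 rose in Het. Bcam, which binds laminin alpha 5, rose by 2.75 and 3.32, and the integrin beta 4 gene Itgb4 by 1.51 and 3.64. Of 7 TGF-beta genes 3 fell in Wt, and 1 fell and 1 rose in Het, with Tgfb2, a ligand of this pathway, falling by 1.54 and by 1.65.

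The effect of the mutation at birth was compared next. In Het against Wt ganglia 2 of the 39 genes were lower and none was higher, where 1.3% and 1.8% of all tested probe sets were lower and higher. The median difference was -0.33 beside 0.03 for all tested, 32 of 39 differences were negative, and the unadjusted p was under 0.05 for 12 of the 39 genes, beside 1829 of all 9973 tested probe sets. Tnxb read 6.26, 4.87, 6.73 and 5.08 in the P0 Wt arrays and 3.25, 3.40, 2.78 and 4.16 in the P0 Het arrays. Lox read 6.17, 6.50, 6.65 and 6.91 in Wt and 5.12, 3.71, 5.84 and 5.72 in Het arrays. For both genes every Wt array lay above every Het array. Tnxb fell by 2.34 ± 0.52 (5.06-fold, adjusted p = 0.021) and Lox by 1.46 ± 0.34 (2.75-fold, adjusted p = 0.028). Most Het arrays of Tnxb lay near background, so its difference is inexact in size.

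Neither Het call was stable when single arrays were left out. The call of Tnxb was lost without P0 Wt replicate 3 (-2.01), P0 Het replicate 5 (-2.29), replicate 6 (-2.34) or replicate 7 (-2.13), with adjusted p from 0.059 to 0.073. That of Lox was lost without P0 Wt replicate 2 (-1.48), replicate 3 (-1.43), replicate 4 (-1.34) or P0 Het replicate 5 (-1.47), with adjusted p from 0.054 to 0.071. Differences of other named genes were not called: -0.997 ± 0.273 for Col6a1 (adjusted p = 0.060), -0.94 ± 0.39 for Col1a1 (adjusted p = 0.21), -0.79 ± 0.25 for Lum (adjusted p = 0.10) and -0.68 ± 0.37 for Dcn (adjusted p = 0.35). Of 11 fibroblast markers 1 was lower and none higher in Het, with a median of -0.39, and of 11 glial markers 2 were lower, with a median of -0.65. Of 9 mural markers 1 was lower, with a median of -0.72. The mean fibroblast level was 4.28 to 5.01 in Wt and 4.07 to 4.30 in Het arrays, the mean glial level 5.96 to 7.57 and 5.75 to 5.84, and the mean fat level 5.71 to 7.14 and 4.02 to 5.56. None of 14 skeletal muscle markers was called (median -1.96), with list means of 2.90 to 8.96 in Wt and 3.22 to 6.95 in Het arrays. None of 4 fat markers (median -2.18) and none of 2 sensory neuron markers (median -2.21) was called either. The mean sensory neuron level was 2.61 to 4.56 in Wt and 2.61 to 2.74 in Het arrays. The part of all these cells in the lower matrix values was not tested.

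In Hom against Wt ganglia 1 of the 39 genes was higher and 1 lower, where 5.16% and 3.34% of all tested probe sets were, and the unadjusted p was under 0.05 for 6 (15.4%), beside 22.0% of all tested. The median difference was 0.10 beside 0.01. Tnxb read 4.72, 3.29, 4.68 and 2.22 in Hom arrays, all below the 4 Wt arrays, and fell by 2.01 ± 0.52 (4.03-fold, adjusted p = 0.022). This call was lost without P0 Wt replicate 1 (-1.84), P0 Wt replicate 3 (-1.68) or P0 Hom replicate 12 (-1.51). Col18a1 read 6.72, 6.22, 7.34 and 6.45 in Wt and 7.24, 7.67, 7.41 and 7.29 in Hom arrays, with overlap only through P0 Wt replicate 3. It rose by 0.72 ± 0.20 (1.65-fold, adjusted p = 0.035), a call lost in 6 of 8 fits that left out 1 array, namely without P0 Wt replicate 1 (0.73), replicate 2 (0.57) or replicate 4 (0.64) and without P0 Hom replicate 9 (0.78), replicate 10 (0.63) or replicate 11 (0.72). Lox stood at 5.37 to 6.01 in Hom, below all Wt arrays, and its difference of -0.87 ± 0.34 was not called (adjusted p = 0.14). Cell markers differed in this contrast too. Of 11 glial markers 2 were lower in Hom (median -0.66), of 9 mural markers 1 was lower (median -1.09), of 10 endothelial markers 2 were higher and 1 lower (median 0.32), of 14 sympathetic neuron markers 3 were lower (median -0.18), and none of 11 fibroblast markers was called (median 0.06). The mean glial level was 6.00 to 6.13 in Hom arrays beside 5.96 to 7.57 in Wt, and the mean mural level 4.77 to 5.72 beside 5.27 to 6.42. None of 14 skeletal muscle markers (median -1.07), 4 fat markers (-1.38) or 2 sensory neuron markers (-2.10) was called. The part of all these cells in the matrix values was not tested.

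The second mutated allele was assessed by setting Hom against Het. Here 4 of the 39 genes were higher and none lower, where 4.14% and 3.25% of all tested probe sets were. The median difference was 0.36 beside -0.01, 36 of 39 differences were positive, and 13 (33.3%) had an unadjusted p under 0.05, beside 22.6% of all tested. Col11a1 read 7.220, 7.329, 6.974 and 7.036 in Het and 8.032, 8.003, 7.799 and 7.757 in Hom arrays. Col12a1 read 5.93, 6.59, 6.36 and 6.38 in Het and 7.56, 7.25, 7.23 and 6.69 in Hom arrays. For both genes every Hom array lay above every Het array. Col11a1 rose by 0.76 ± 0.15 (1.69-fold, adjusted p = 0.0071), a call kept in all 8 fits that left out 1 array, and Col12a1 by 0.86 ± 0.20 (1.82-fold, adjusted p = 0.017), a call lost without P0 Het replicate 5 (0.74) or P0 Hom replicate 9 (0.74). Col6a1 read 8.75, 8.42, 8.70 and 8.73 in Het and 9.98, 9.84, 9.58 and 9.25 in Hom arrays, and Col6a3 read 9.22, 9.47, 9.49 and 9.60 against 10.48, 10.30, 10.45 and 9.79. The groups did not overlap for either chain of collagen VI. Col6a1 rose by 1.02 ± 0.27 (adjusted p = 0.035) and Col6a3 by 0.81 ± 0.22 (adjusted p = 0.037). Both calls were lost in 7 of 8 fits that left out 1 array and were kept without P0 Hom replicate 12, with differences from 0.91 to 1.15 for Col6a1 and from 0.74 to 0.97 for Col6a3 over the 8 fits. The third chain, Col6a2, had a difference of 0.84 ± 0.29 (adjusted p = 0.093), also with no overlap. Against Wt none of these genes was called in either mutant group. The type VI chains differed from Wt by 0.02 to 0.46 in Hom and by -1.0 to -0.38 in Het. The tested fibril-associated chains, Col12a1 among them, differed by 0.10 to 0.24 and by -0.67 to 0.18. The mean of Col11a1 was 7.41 in Wt, 7.14 in Het and 7.90 in Hom. For the type VI chains and Col11a1, Het thus lay below Wt and Hom.

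The counts between genotypes at P0 depended on which of the outermost arrays were fitted. Since these arrays were singled out by their matrix values as well, leaving out the high Wt array and the low Hom array raises Hom against Wt by its construction, and leaving out the low Hom array also raises Hom against Het and narrows its spread. Without this pair (replicate 3 of P0 Wt and replicate 12 of P0 Hom), 19 of the 39 genes were higher in Hom than in Het, where 6.46% of all tested probe sets were, and 7 were higher in Hom than in Wt, where 6.41% of all tested were. Without the opposite pair (replicate 2 of P0 Wt and replicate 9 of P0 Hom), only Col11a1 stayed higher in Hom than in Het, where 1.93% of all tested probe sets were higher, and against Wt none was higher in Hom and only Tnxb lower, where 3.24% and 2.25% of all tested were. Without all 4 arrays, 10 genes were higher in Hom than in Het and none lower, where 3.42% and 3.54% of all tested probe sets were. They were the 4 genes above together with Col18a1, Col3a1, Col5a2, Col6a2, Lama4 and Lum. Against Wt, Col18a1 was then called higher in Hom, where 2.9% of all tested were, and Tnxb was no longer called. For Het against Wt, Tnxb was called lower in each of the 3 fits, and Lox in none of them. The median difference of the 39 genes between Hom and Het was 0.53, 0.28 and 0.43 in the 3 fits, and that between Hom and Wt 0.35, -0.08 and 0.19. Over the 39 genes the mean log2 level was 8.64, 8.33, 8.50 and 7.83 in the Hom arrays, 7.71 to 8.03 in the Het and 8.05 to 8.84 in the Wt arrays.

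**Figure D4:**
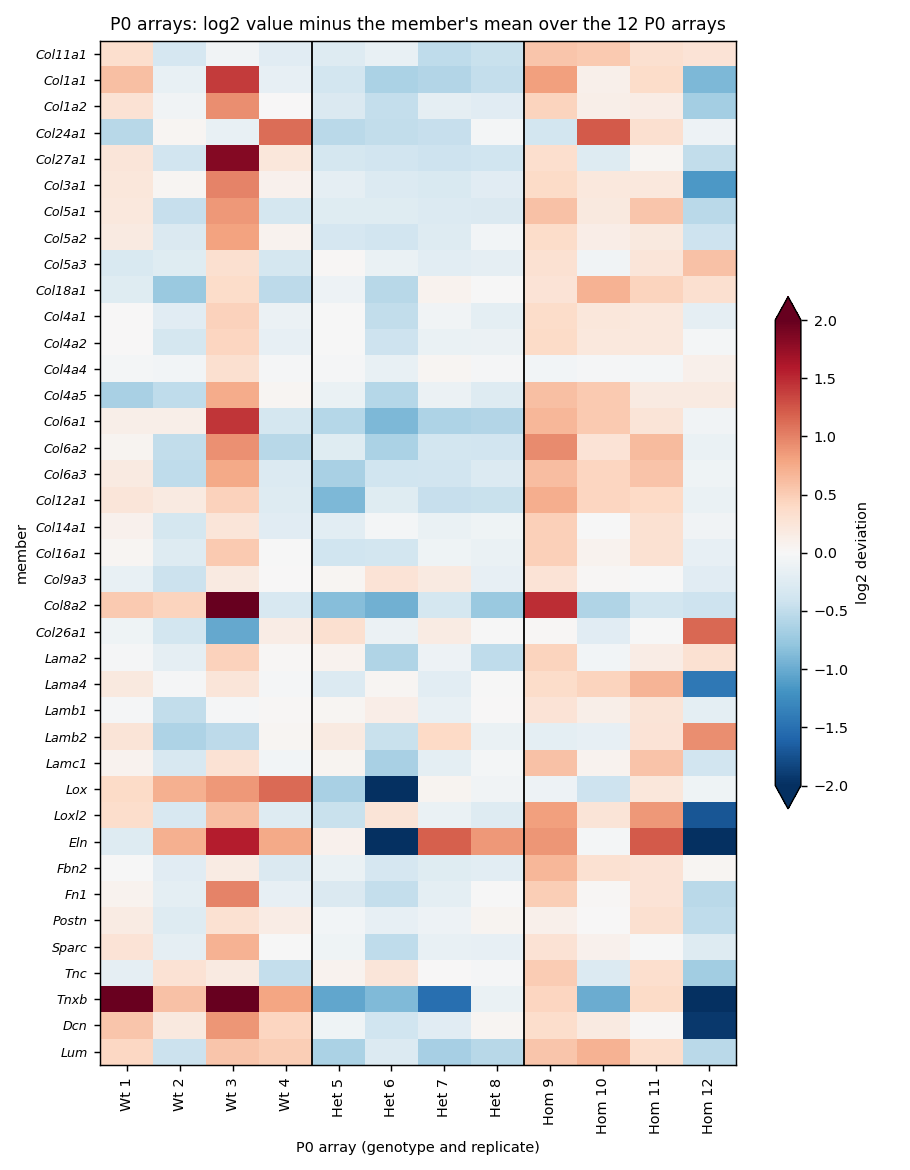
Heat map of the 39 tested genes (rows, ordered by role) in the 12 P0 arrays (columns). Colour is the log2 value minus the mean of the gene over the 12 arrays, saturated at 2 in either direction. The column of P0 Wt replicate 3 is mostly red and that of P0 Hom replicate 12 is deep blue for Eln, Tnxb, Dcn and Loxl2. The Het columns are mostly pale blue, with Lox and Eln deep blue in replicate 6.

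**Figure D5:**
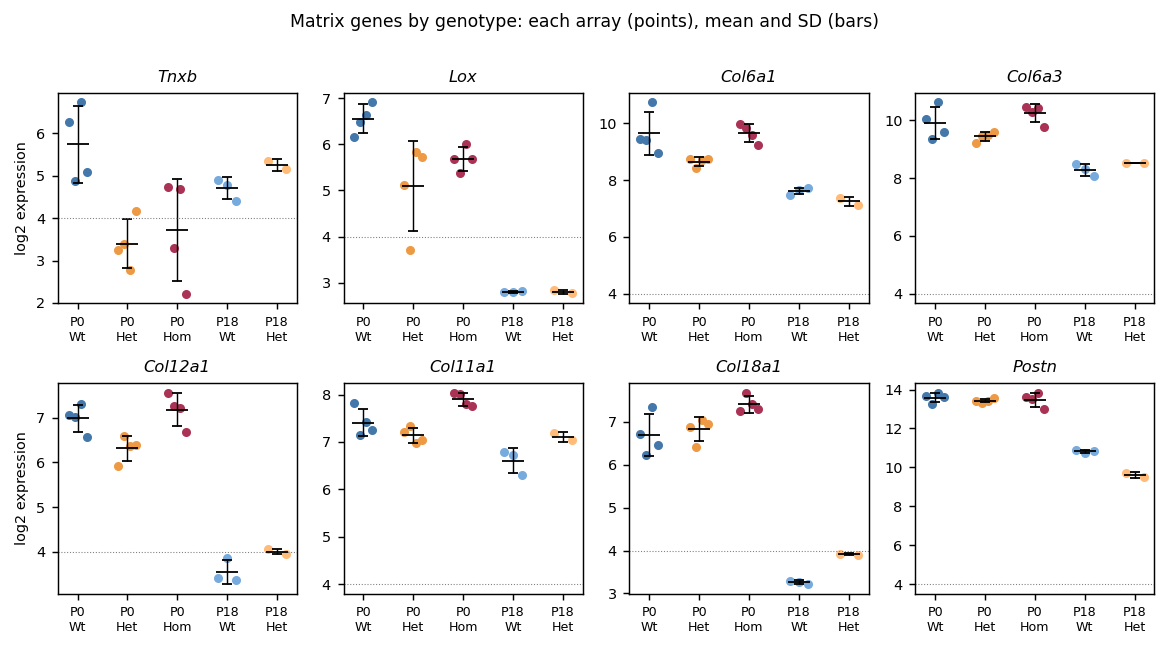
Log2 expression (vertical axis, its own range in each panel) of 8 matrix genes in the 5 groups. Points are arrays, black bars the mean and SD, and the dotted line marks log2 4. Tnxb is lower in both mutant groups at P0 than in Wt, Col6a1, Col6a3, Col12a1 and Col11a1 are higher in Hom than in Het, and Postn is lower in P18 Het than in P18 Wt.

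Marker lists were counted for Hom against Het. Of 11 fibroblast markers 1 was higher and none lower in Hom than in Het, with a median of 0.46, and the mean fibroblast level was 4.33 to 4.82 in Hom arrays. Of 10 endothelial markers 1 was higher, with a median of 0.38, and of 14 sympathetic neuron markers 6 were lower, with a median of -0.26. None of 14 skeletal muscle markers (median 0.67) and none of 4 fat markers (median 0.76) was called. Among other matrix genes, Adamts3, a protease that removes the amino end of procollagens, was higher in Hom by 2.76 ± 0.53 against Wt (adjusted p = 0.0030) and by 2.43 ± 0.53 against Het (adjusted p = 0.013). Egflam, which encodes pikachurin, a laminin-like ligand of dystroglycan, was higher by 2.41 ± 0.32 (adjusted p = 0.00012) and 1.45 ± 0.32 (adjusted p = 0.013). The hyaluronan receptor gene Cd44 was higher by 1.34 ± 0.19 (adjusted p = 0.00022) and 1.21 ± 0.19 (adjusted p = 0.0015), and the thrombospondin-1 gene Thbs1 by 1.17 ± 0.20 (adjusted p = 0.0011) and 1.18 ± 0.20 (adjusted p = 0.0023). Ogn, a proteoglycan gene of the lumican family, was lower than in Wt in Het (-1.05 ± 0.17, adjusted p = 0.0032) and in Hom (-0.60 ± 0.17, adjusted p = 0.040).

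At P0 no list held more than 3 calls in 1 direction. As a scale for these counts, 1.8% of all tested probe sets were higher in Het than in Wt ganglia, and 1.3% lower. In Hom ganglia 5.16% exceeded Wt and 3.34% lay below it, while 4.14% exceeded Het and 3.25% lay below it. Some lists, such as the basement membrane partners in Hom, held calls at a higher rate. Whether a list held more calls than other genes was not tested. For Het against Wt, the collagen synthesis list had 1 gene higher and 1 lower of 21, the elastic fibre list 1 lower of 11, the proteoglycan list 1 lower of 9, the matricellular list 1 higher of 13 and the receptor list 1 lower of 11, with none called in the basement membrane, breakdown and TGF-beta lists. For Hom against Wt, 3 of 11 basement membrane partners and 2 of 21 collagen synthesis genes were higher and none lower, and 1 of 11 receptor genes was higher. In that contrast 2 of 13 matricellular genes were higher and 1 lower (Spock3), the elastic fibre list had 1 higher and 1 lower (Vit), the breakdown list 1 higher and 1 lower (Mmp2), the proteoglycan list 1 lower (Ogn) and the TGF-beta list 1 lower (Smad7). For Hom against Het, 3 of 21 collagen synthesis genes and 3 of 17 breakdown genes were higher and none lower. In each of these lists 10 genes had an unadjusted limma p under 0.05, beside 22.6% of all tested. Basement membrane partners and elastic fibre genes had 2 of 11 higher, matricellular genes 2 of 13 and receptors 1 of 11. The proteoglycan list had 1 lower of 9, and no TGF-beta gene was called. The medians of the 8 lists lay between -0.50 and 0.08 for Het against Wt and between 0.00 and 0.55 for Hom against Het.

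At P18, Het ganglia differed from Wt ganglia in 1 matrix gene. Of the 39 genes 1 was lower and none higher, where 0.0501% and 0.211% of all tested probe sets were, and 8 (20.5%) had an unadjusted p under 0.05, beside 7.8% of all tested. Postn read 10.90, 10.72 and 10.85 in P18 Wt and 9.71 and 9.50 in P18 Het arrays, with no overlap, and fell by 1.22 ± 0.19 (2.33-fold, adjusted p = 0.014). The call was lost without P18 Wt replicate 1 (-1.18), P18 Het replicate 4 (-1.32) or P18 Het replicate 5 (-1.12). At P0 the same difference for Postn was -0.16, with Wt arrays at 13.23 to 13.81 and Het arrays at 13.33 to 13.55. The median difference of the 39 genes at P18 was 0.28 beside -0.02, with 27 positive, against a median of -0.33 at P0. Col27a1 read 5.76, 5.94 and 5.32 in P18 Wt and 7.06 and 6.65 in P18 Het arrays, a difference of 1.19 ± 0.44 that was not called (adjusted p = 0.45). Lama2 differed by 0.64 ± 0.20 (adjusted p = 0.35) and Lamb1 by 0.55 ± 0.18 (adjusted p = 0.37), also with no overlap of arrays. Of the 8 other lists only the basement membrane partners held a call, for Smoc1, a SPARC-related gene, which was higher in Het by 0.79 ± 0.15 (adjusted p = 0.040).

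The 25 genes under the filter are given for completeness. They were the cartilage chains Col2a1, Col9a1, Col9a2, Col10a1 and Col11a2, the basement membrane chains Col4a3, Col4a6, Col7a1 and Col15a1, the membrane-spanning chains Col13a1, Col17a1, Col23a1 and Col25a1, the chains Col6a4, Col6a5, Col8a1, Col19a1, Col20a1 and Col22a1, the laminin chains Lama1, Lama3, Lama5, Lamb3 and Lamc3, and Loxl1. Of these, 7 exceeded log2 4 in 1 array each: Col19a1 (4.27), Col8a1 (4.97) and Loxl1 (4.87) in P0 Wt replicate 3, Lama3 (4.05) in P0 Hom replicate 9, Col7a1 (5.21) and Col9a1 (4.10) in P0 Hom replicate 12, and Col23a1 (4.02) in P18 Het replicate 5. A value near background does not show that a gene was silent. With all 17306 probe sets tested, 39 of the 64 genes were called with age in Wt, 6 higher and 33 lower. The 6 added were Col17a1, Col19a1, Col22a1, Col23a1, Col4a3 and Col8a1, none of them above log2 4 in more than 1 array. The share of all 17306 probe sets called in that fit is not given.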

How the data were processed

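The values analysed are log2 expression levels, 1 per gene-level probe set and array, that the authors deposited after GCRMA background correction, normalization and summarization. GCRMA is named in the submitters' processing notes, and the study's methods name a Brainarray definition of the probe sets. Scanner files were not used here. GCRMA pulls dim probe sets towards a common floor near log2 2, so differences that end under about 4 are inexact in size. Of 17306 probe sets, 842 had no gene symbol. Fbn1, Col21a1, Col28a1 and Col6a6 were not analysed here.

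Probe sets above log2 4 in at least 2 of the 17 arrays (9973) were fitted in R 4.3.3 with limma 3.58.1, with 1 mean per group, empirical Bayes moderation with trend and robust options, and two-sided tests. P-values were adjusted by Benjamini-Hochberg over all 9973, and called means an adjusted p below 0.05. Errors beside differences are SE of this fit. Precision is limited by the number of arrays. The code was tested on simulated data.

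The genes, lists and comparisons were chosen with earlier results of these data known. Any of the 64 genes may be named. Full statistics went to the largest called differences, up to 10 in each direction per comparison, and to Col1a1, Col3a1, Col4a1, Col4a2, Col6a1, Lama2, Lama4, Lamb1, Lamc1, Lox, Eln, Fn1, Tnc, Tnxb, Postn, Sparc, Dcn and Lum whatever their call. Other genes with statistics were named after their values were seen. Genes of the other matrix lists were named from the up to 3 largest called differences in each direction per list and comparison, and not all of these are named. Older symbols were matched through current symbols and synonyms. Alternatives were no filter, a stricter filter, plain moderation, array weights, quantile normalization, centring on the median, fitting only the arrays compared, the t-test of the study's methods, leaving out each array, leaving out chosen pairs of arrays, all 4 outermost arrays of P0 Wt and P0 Hom (these and the pair of replicate 2 and replicate 9 were chosen after seeing the data), and the replicate number as a block.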

Additional observations from a re-analysis of the deposited data

Results flagged for a closer look

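Among the 39 tested matrix genes in the 3 groups of 4 arrays, 117 sets of 4 values were screened for a single value far from the other 3 by Dixon's criterion. It marked 10, and chance alone marks about 1 in 20.

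In P0 Wt ganglia, Col5a3, a collagen V chain, read 8.289 in replicate 3 against 7.622 to 7.726 in the others, and Col4a4, a basement membrane chain, read 3.261 there against 2.883 to 2.918. In replicate 2, Lamb1, the laminin beta 1 chain, read 8.785 against 9.25 to 9.306 and Lum, the lumican gene, 8.582 against 9.417 to 9.565.

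In P0 Het ganglia, Col24a1, a fibrillar chain, read 3.423 in replicate 8 against 2.923 to 3.002, and Col6a1, a chain of the beaded filaments, read 8.422 in replicate 6 against 8.699 to 8.749.

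In P0 Hom ganglia, 3 of the 4 marked values belong to replicate 12. There Col3a1, the collagen III chain, read 11.22 against 12.577 to 12.76, Dcn, the decorin gene, 9.789 against 11.744 to 12.081 and Lama4, the alpha chain of vessel laminin, 4.64 against 6.426 to 6.742. In replicate 9 Col8a2, a chain of short-chain networks, read 4.971 against 2.899 to 3.135.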

How the results depend on the processing

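No difference of the called matrix genes changed sign under any alternative run. The counts of the members called with age stayed within 1.5 times of 33 in Wt and 30 in Het under every alternative, and the counts between genotypes did not. In the P0 comparisons of Het with Wt, Hom with Wt and Hom with Het, in this order, the members called were 0, 0 and 2 with no filter, where more probe sets share the adjustment. They were 1, 0 and 5 when only the compared arrays were fitted, 5, 6 and 22 with array weights, 0, 0 and 1 with the methods' t-test after adjustment, and 2, 7 and 19 once the high Wt and the low Hom array (replicate 3 of P0 Wt, replicate 12 of P0 Hom) were left out. Chosen after seeing the data, leaving out the opposite pair (replicate 2 of P0 Wt, replicate 9 of P0 Hom) gave 2, 1 and 1, and leaving out all 4 gave 2, 1 and 10. For Hom against Wt the count was 1 without P0 Wt replicates 1 and 4. There Col18a1 and Tnxb were both lost, and Col11a1 was newly called higher. Those arrays had a mean sensory neuron marker level of 4.56 and 4.01, where P0 Wt replicates 2 and 3 had 3.02 and 2.61. At P18 the members called for Het against Wt were 4 with array weights, 0 with the methods' t-test, 2 without replicate 3 of P0 Wt and replicate 12 of P0 Hom and 2 without all 4. The difference between the age changes was called for 1 of the members when only the compared arrays were fitted, for 6 with array weights, for 2 without replicate 3 of P0 Wt and replicate 12 of P0 Hom and for 3 without all 4. Those arrays were picked with their matrix values known, so leaving them out shifts the genotype differences by construction. Apart from this shift, the cause of these changes was not tested, and this holds for the fit with no filter too. After adjustment the methods' t-test called 60, 142 and 224 of all tested probe sets in the P0 comparisons, in the same order. For array weights and other alternatives without such a number in this report, the share of all tested probe sets called is not given. Those counts therefore do not show whether matrix genes were called more often than other genes.

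Leaving out each array in turn gave 0 to 3 members called for Het against Wt at P0, 1 to 2 for Hom against Wt, 1 to 8 for Hom against Het, 0 to 1 for Het against Wt at P18, 31 to 34 for age in Wt, 23 to 30 for age in Het and 0 to 0 for the difference of age changes. Where 1 P18 Het array remained, its spread was assumed to be that of the other groups. P0 Wt and P18 Wt share replicate numbers. The deviations of same-numbered arrays from their own group means correlated at 0.07, 0.093 and -0.179 over the tested probe sets. Whether these arrays share more than a number was not tested. With the replicate block, 31 members were called with age in Wt, Col16a1, Col4a5 and Col5a3 no longer and Dcn newly so. Genotype groups share no replicate number. Signal limits the differences that end under log2 4, such as those of Eln, Lox and Col18a1.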
